A study of Mus musculus with 7 samples.

Results

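The 35 genes described here mark macrophages and monocytes or the states that these cells take. They were read from the deposited expression table as the rows whose name equalled a member, which gave 36 of its 38026 rows, because *Trem2* has 2 rows with identical values that were counted as 1 gene. RNA was sequenced from 7 subcutaneous tumors, harvested without any treatment 2 weeks after inoculation of pancreatic ductal adenocarcinoma (PDA) cells into the flank of C57BL/6 mice, which had been bought at 6 weeks of age and housed for 2 weeks. The cancer cells of every tumor were line 1242, from a pancreatic tumor of a genetically engineered mouse with the allele LSL-Trp53 R172H/+ and with Pdx1-Cre, in which the *Pdx1* promoter drives Cre in the pancreatic lineage. They expressed the nuclease SpCas9 and either a scrambled guide RNA in 4 tumors (sgScramble, numbered 1 to 4) or a guide RNA against *Krt19*, an epithelial keratin, in 3 tumors (sgKrt19, numbered 5, 6 and 8). The methods describe both puromycin-selected lines and clones grown from single cells, and the labels do not say which of these, or which guide, the sequenced tumors carried. The host mice were not edited. The comparison asks which genes of macrophage states differed between the groups, beside the genes that mark the macrophage population as a whole.

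Macrophages in a tumor arise from blood monocytes and from cells resident in the tissue, and both depend on signals through the CSF1 receptor. They recognise antibody through Fc receptors and the complement protein C1q, take up debris and lipoproteins through scavenger receptors, and can store lipid. Interferon gamma, made by T cells and NK cells, induces genes such as *Nos2* in mouse macrophages, whereas IL-4 and IL-13 act through STAT6 to induce *Arg1*, *Chil3*, *Retnla* and *Mrc1*. The members were therefore ordered as 10 identity genes, 6 genes of Fc receptors and C1q, 8 of scavenger receptors and resident-type macrophages, 4 of lipid-associated macrophages, 4 of activation and 3 of monocytes.

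Values are normalized read counts, in which each library's reads are scaled by its size factor, and ± marks the SD between tumors. Libraries held 40781199 to 44972100 reads. *Krt19*, the edited gene, had 25574, 21179, 27618 and 17841 normalized read counts in the sgScramble tumors and 1606, 1960 and 2470 in the sgKrt19 tumors. A linear model across all genes (limma, adjusted p under 0.05) called 34.0% of the 21322 genes tested, 17.9% as higher and 16.0% as lower in sgKrt19 tumors, and the groups did not overlap for 41.1%. With scaling by library size alone the median log2 fold change of all genes tested moved from 0.0072 to −0.21, and the higher share of all calls from 52.8% to 27.7%. Fold changes below thus depend on the deposited scaling. Transcripts of other cells also differed. The summed normalized read count of 4 T cell genes was 226 to 599 in the sgScramble tumors and 1939 to 3718 in the sgKrt19 tumors, that of 5 general leukocyte genes was 7500 to 10236 in the sgScramble tumors and 13736 to 18404 in the sgKrt19 tumors, and that of 9 neutrophil genes was 382 to 573 against 1102 to 1189. Among the neutrophil genes, *Ly6g*, *Camp* and *Ngp* stayed at or below 9.25 in every tumor. The sums were 300 to 376 against 456 to 492 for 7 dendritic cell genes, 2140 to 3231 against 3639 to 3883 for 3 blood endothelial genes, 492 to 718 against 609 to 733 for 4 lymphatic endothelial genes and 343 to 1511 against 889 to 1178 for 3 mast cell genes. Of the dendritic cell genes, *Xcr1* and *Clec9a* were called higher, at 1.55 and 0.88 (limma adjusted p = 0.00362 and 0.0214). *Flt3*, *Zbtb46*, *Cd209a* and *Ccr7* were not called, and *Siglech* was not tested. Most of the lymphatic sum came from *Flt4* and *Pdpn*, which were not called. *Ccl21a* was called higher at low values of 2.79 to 10.05 against 16 to 40.5 (log2 fold change 2.15, limma adjusted p = 0.00648). It passed the filter of at least 10 in at least 3 tumors mainly through the sgKrt19 tumors, so its call lends no support. *Prox1* was not tested, at 0.929 to 3.65 against 4.62 to 10. They were 32574 to 80543 against 40717 to 45821 for 4 fibroblast genes, 57.54 to 1076 against 93.02 to 517 for 3 adipocyte genes, 113486 to 149308 against 234269 to 245862 for 4 epithelial genes and 22.7 to 1496 against 13198 to 19359 for 4 skeletal muscle genes, where sgScramble tumor 3 alone gave the upper value of its group. Most of the epithelial sum came from the keratin genes *Krt8* and *Krt18*, with log2 fold changes of 0.91 and 0.97. *Cdh1* gave 0.55, and *Epcam* was not called at 0.064 (limma adjusted p = 0.943). *Cd207*, which marks Langerhans cells, was at or below 1.86 in every tumor.

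Of the 35 members, 34 passed the filter of at least 10 normalized read counts in at least 3 tumors. *Vsig4*, a complement receptor of resident macrophages, did not pass, with 13.9, 2.96, 4.57 and 0.927 in the sgScramble tumors and 2.31, 1 and 3.15 in the sgKrt19 tumors, the latter 1 to 3 reads. limma called 16 of the 34, or 47.1%, against 34.0% of all genes tested. Of these, 13 were higher in sgKrt19 tumors (38.2% of the members, 17.9% of all genes) and 3 were lower (8.82% against 16.0%). The groups did not overlap for 14 tested members, 41.2%, which is close to the 41.1% of all genes. The median log2 fold change of the tested members was 0.17 and that of all genes 0.0072. The members were chosen with earlier results of these data known, so these shares describe them and test nothing. With scaling by library size alone, 8 members were called higher and 5 lower, in place of 13 and 3. In bulk tumor RNA, more or fewer cells of a type and more or less RNA per cell cannot be told apart.

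**Figure D1:**
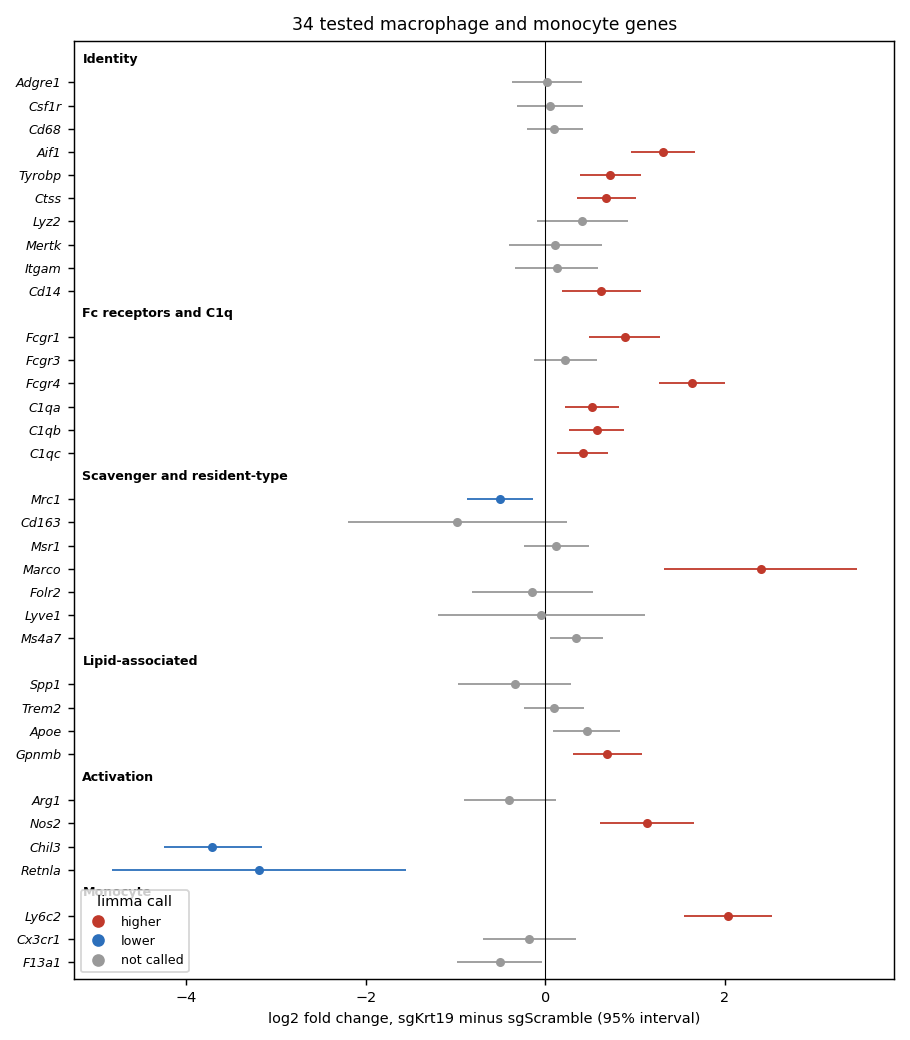
Each point is the log2 fold change of 1 gene (sgKrt19 minus sgScramble, x axis) with its 95% interval, for the 34 members tested, grouped by role on the y axis. Red points were called higher by limma (13 genes), blue points lower (3 genes) and grey points were not called (18 genes); *Chil3* and *Retnla* lie farthest to the left, at −3.71 and −3.19, and *Marco* and *Ly6c2* farthest to the right, at 2.40 and 2.03.

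Of the identity group, *Adgre1*, *Csf1r*, *Cd68*, *Mertk*, *Itgam* and *Lyz2* were not called, while *Aif1*, *Tyrobp*, *Ctss* and *Cd14* were called higher in sgKrt19 tumors. *Adgre1* encodes F4/80, the adhesion receptor used to stain mouse macrophages, and had 707, 581, 635 and 916 normalized read counts in the sgScramble tumors and 768, 792 and 585 in the sgKrt19 tumors, with means of 710 ± 147 (SD, n = 4) and 715 ± 113 (SD, n = 3). The groups overlapped, and the log2 fold change was 0.019 with a 95% interval of −0.37 to 0.41 (limma adjusted p = 0.942). *Csf1r*, the receptor for CSF1, overlapped in the same way with 2580, 2361, 2939 and 3864 against 2894, 3426 and 2693. Its log2 fold change was 0.051 with an interval of −0.32 to 0.42 (limma adjusted p = 0.832). Of the exon bases of *Csf1r*, 15.1% lie opposite *Hmgxb3*, and how such bases were counted is not given in the sources used here. *Cd68*, a protein of macrophage lysosomes, had a log2 fold change of 0.10 with an interval of −0.21 to 0.42 (limma adjusted p = 0.589). *Mertk*, the receptor that macrophages use to engulf dying cells, gave 0.11 (−0.40 to 0.63), and *Itgam*, the integrin CD11b of myeloid cells, gave 0.13 (−0.34 to 0.59). For *Itgam* 68.7% of exon bases also belong to the gene model *Gm49368* on the same strand, so its value is uncertain. These 5 intervals allow a change of up to 0.63 on the log2 scale in one direction and 0.40 in the other, so they do not show that the genes were at the same level. With scaling by library size alone all 5 fold changes were below 0, at −0.20 for *Adgre1*, −0.16 for *Csf1r*, −0.11 for *Cd68*, −0.10 for *Mertk* and −0.089 for *Itgam*.

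*Aif1*, which encodes the calcium-binding protein IBA1 of macrophages and microglia, differed most within the identity group. It had 502, 330, 342 and 368 normalized read counts in the sgScramble tumors and 1047, 916 and 873 in the sgKrt19 tumors, so that the lowest sgKrt19 tumor lay well above the highest sgScramble tumor. Its log2 fold change was 1.31 (limma adjusted p = 0.000348, SE 0.16). *Tyrobp* encodes DAP12, the signaling adaptor of TREM2 and of receptors on NK cells and neutrophils, and had 1501, 1006, 1251 and 1339 against 2371, 2113 and 1774. The groups did not overlap, the log2 fold change being 0.72 (limma adjusted p = 0.00635, SE 0.15). *Ctss*, the lysosomal protease that trims the invariant chain of MHC class II molecules, had 8898, 6659, 7807 and 9063 against 14913, 13049 and 11019, again without overlap (log2 fold change 0.68, limma adjusted p = 0.00696, SE 0.15). *Cd14*, the co-receptor for lipopolysaccharide, was called at 0.62 (limma adjusted p = 0.0341, SE 0.20), although its groups overlapped. Its values were 5577, 4199, 4719 and 3521 in the sgScramble tumors and 9042, 5292 and 6690 in the sgKrt19 tumors. The *Cd14* call was lost without sgScramble replicate 2 (adjusted p = 0.0809), sgScramble replicate 4 (0.0803), sgKrt19 replicate 5 (0.129) or sgKrt19 replicate 8 (0.0747), with scaling by library size alone (0.0715) and with no trend in the moderation (0.0715), all by limma. *Lyz2*, the lysozyme of macrophages and neutrophils, was among the most abundant members per length and was not called, at 0.41 with an interval of −0.091 to 0.92 (limma adjusted p = 0.179). Of its exon windows as long as a read (76 bases), 5.8% also occur in *Lyz1*, which gave 0.48 (limma adjusted p = 0.115). In all, 4 of the 10 identity genes were called, each higher, and the median log2 fold change of the 10 was 0.27. *Aif1*, *Tyrobp* and *Ctss* are also expressed by other leukocytes, whose summed markers were higher in sgKrt19 tumors, and the part of those cells in these differences was not tested.

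**Figure D2:**
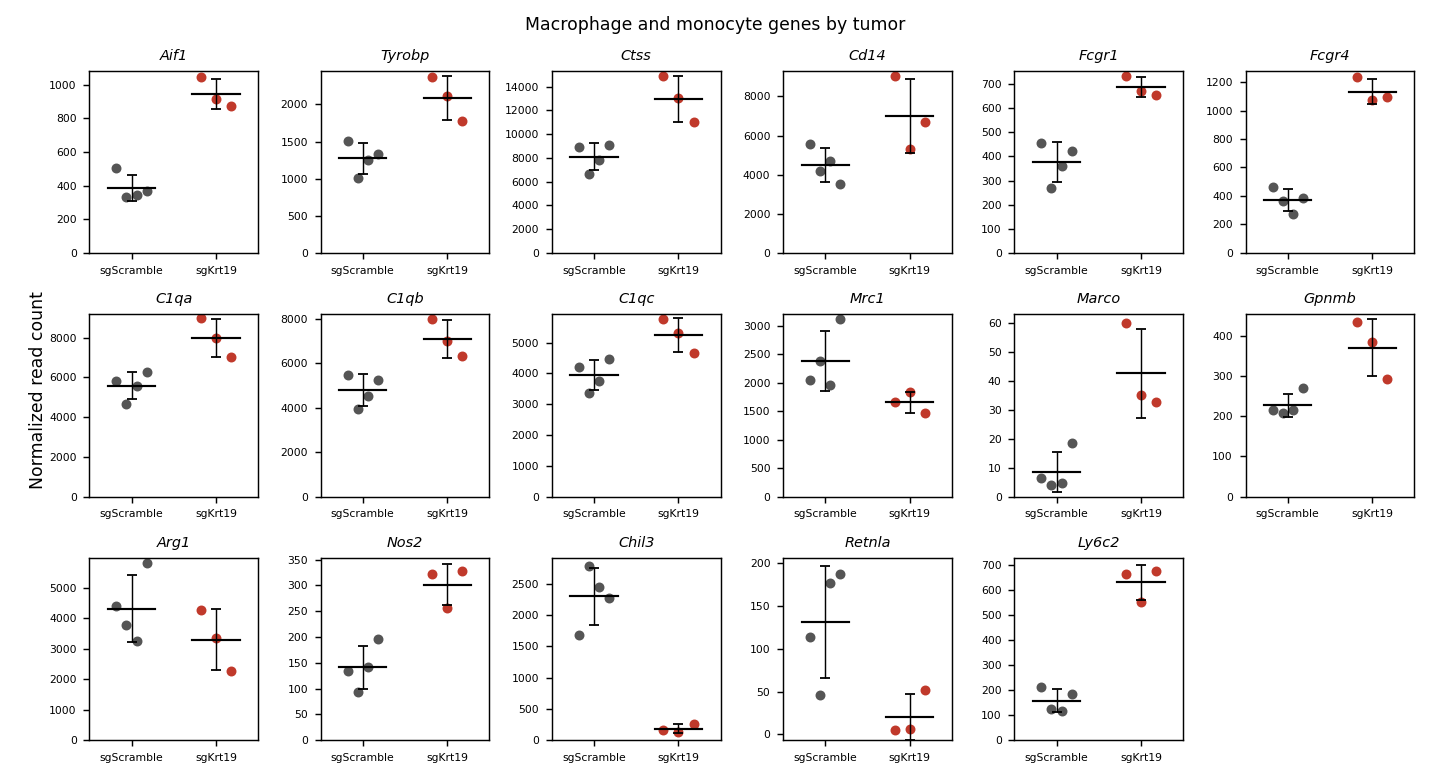
Normalized read counts (y axis, linear and starting at or below 0) in each tumor for the 16 members called and *Arg1*, by group on the x axis. Points are tumors, horizontal lines are group means and bars are SDs (n = 4 sgScramble, n = 3 sgKrt19). The groups do not overlap for 14 of the 17 genes, and those of *Cd14*, *Arg1* and *Retnla* do. The 16 genes were called on these same values, which favors such a gap. Among all tested members the groups did not overlap for 41.2%, and among all genes tested for 41.1%.

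Among receptors for antibody, the activating receptors *Fcgr1* and *Fcgr4* were higher in sgKrt19 tumors, and so were all 3 chains of C1q. *Fcgr4* (ENSMUSG00000059089.4, chromosome 1 at 171018920 to 171029761 of GRCm38, plus strand) encodes the mouse activating receptor FcgammaRIV of monocytes, macrophages and neutrophils. It had 462, 363, 276 and 384 normalized read counts in the sgScramble tumors and 1232, 1073 and 1092 in the sgKrt19 tumors, with means of 371 ± 76.4 (SD, n = 4) and 1133 ± 86.9 (SD, n = 3), a ratio of means of 3.05. The groups were far apart, the log2 fold change being 1.63 (limma adjusted p = 0.000139, SE 0.17). *Fcgr1* (ENSMUSG00000015947.10, chromosome 3 at 96282909 to 96293969 of GRCm38, minus strand) encodes the high-affinity receptor CD64 and had 454, 270, 362 and 423 against 732, 672 and 654, also without overlap (log2 fold change 0.89, limma adjusted p = 0.0045, SE 0.18). *Fcgr3*, the low-affinity activating receptor CD16, was not called, at 0.22 with an interval of −0.13 to 0.57 (limma adjusted p = 0.295). Its values of 2169, 1597, 1846 and 2384 and 2661, 2356 and 1950 overlapped. Of the 76-base windows of *Fcgr3*, 5.31% also occur in *Fcgr2b*, the inhibitory receptor, which gave −0.10 (limma adjusted p = 0.681). *Fcer1g*, the common gamma chain through which the activating receptors signal, is described with the associated genes.

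C1q is assembled from A, B and C chains, and its genes lie next to each other on chromosome 4. *C1qa* had 5840, 4638, 5568 and 6257 normalized read counts in the sgScramble tumors and 8966, 7968 and 7032 in the sgKrt19 tumors. *C1qb* had 5463, 3945, 4520 and 5269 against 8010, 6998 and 6321, and *C1qc* had 4205, 3353, 3745 and 4462 against 5774, 5303 and 4676. For each chain every sgKrt19 tumor lay above every sgScramble tumor. The log2 fold changes were 0.52 for *C1qa* (limma adjusted p = 0.0146, SE 0.13), 0.57 for *C1qb* (limma adjusted p = 0.0121, SE 0.14) and 0.42 for *C1qc* (limma adjusted p = 0.0305, SE 0.13). Scaling by library size alone ended all 3 calls, with log2 fold changes of 0.30, 0.36 and 0.20 and limma adjusted p-values of 0.0878, 0.0572 and 0.235. Without sgKrt19 replicate 5 limma no longer called *C1qa* (adjusted p = 0.0546) or *C1qc* (0.103), and *C1qc* was also lost without sgScramble replicate 2 (0.0919), sgScramble replicate 3 (0.0633) or sgKrt19 replicate 6 (0.0744), and with no trend in the moderation (0.0626). Per kilobase of exon the sgScramble means were 5361 for *C1qa*, 4411 for *C1qb* and 2041 for *C1qc*, in the same order as the sgKrt19 means of 7682, 6535 and 2719.

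*Fcgr1*, *Fcgr3*, *Fcgr4* and several other members hold a motif of a myeloid factor just before their starts. Fewer members hold motifs of interferon-responsive factors, and *Fcgr3* does not. RefSeq windows of GRCm38.p6 were matched by symbol for 26 of the 35 members, and the 250 bases before each start were searched on both strands. GAGGAA, the core bound by the macrophage factor PU.1, occurred for 18 of the 26 genes and in 23.3% of all 32851 promoter windows of that length. GAAANNGAA, a core of the interferon-stimulated response element, occurred for 8 of the 26 and in 7.13% of windows, and TTCNNNGAA, the core of the STAT-binding GAS element, for 2 of the 26 (*Fcgr1* and *Chil3*) and in 7.02%. TGANTCA, bound by AP-1, occurred for 4 of the 26 (6.75% of windows) and TTGCNNAA, bound by C/EBP, also for 4 (9.56%), while the E-box CACGTG occurred for none (6.02%). Motifs may overlap each other, and a match is a sequence of letters and not a measured site. A member with several windows was counted if any of them matched, which raises its chance of a match over that of a single window. GAAANNGAA also lies before *Spp1*, *Apoe*, *Folr2* and *Ms4a7*, which were not called, and before *Chil3*, which was called lower. *Aif1*, which was called higher, holds both GAAANNGAA and GAGGAA and is not shown. The upstream sequences of *Fcgr1*, *Fcgr4* and *Ctss* are shown as examples of genes called higher that hold such matches. They end at the base before the start of the gene, run 5′ to 3′ on the strand of the gene, and have the matches in capitals.
*Fcgr1*, chr3:96293970-96294169, minus strand, with a GAS core and a PU.1 core: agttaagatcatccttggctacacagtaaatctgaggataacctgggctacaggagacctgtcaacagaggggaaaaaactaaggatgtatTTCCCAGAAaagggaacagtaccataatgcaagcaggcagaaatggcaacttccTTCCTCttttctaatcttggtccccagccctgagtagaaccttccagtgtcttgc
*Fcgr4*, chr1:171018726-171018919, plus strand, with an ISRE core and a PU.1 core: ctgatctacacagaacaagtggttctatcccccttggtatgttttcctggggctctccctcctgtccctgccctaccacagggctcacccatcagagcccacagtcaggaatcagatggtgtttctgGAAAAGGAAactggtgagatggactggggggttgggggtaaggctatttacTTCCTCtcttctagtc
*Ctss*, chr3:95526586-95526785, plus strand, with a PU.1 core and an ISRE core: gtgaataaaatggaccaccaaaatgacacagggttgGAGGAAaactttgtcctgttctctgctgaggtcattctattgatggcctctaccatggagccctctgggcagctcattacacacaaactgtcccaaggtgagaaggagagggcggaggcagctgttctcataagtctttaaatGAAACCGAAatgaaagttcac

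Scavenger receptors and genes of resident-type macrophages did not move together: 1 was higher, 1 was lower and 5 of the 7 tested were not called, with a median log2 fold change of −0.048. *Marco*, a scavenger receptor for bacteria and particles, had 6.502, 3.95, 4.57 and 18.6 normalized read counts in the sgScramble tumors, which are 4 to 20 reads, and 60.1, 35.01 and 32.6 in the sgKrt19 tumors, which are 31 to 52 reads. The groups did not overlap, and the log2 fold change was 2.40 (limma adjusted p = 0.00481, SE 0.49). At such low counts it depended on the pseudocount and was 1.54 with a pseudocount of 10. Of the sgScramble tumors only tumor 4 reached the filter value of 10. *Marco* thus passed the filter mainly through the sgKrt19 tumors, and its call lends no support. *Mrc1*, the mannose receptor CD206, went the other way, with 2047, 2376, 1963 and 3120 against 1667, 1835 and 1460. Every sgKrt19 tumor lay below every sgScramble tumor, the log2 fold change being −0.50 (limma adjusted p = 0.0378, SE 0.16). The *Mrc1* call was lost without sgScramble replicate 2 (limma adjusted p = 0.0835), sgScramble replicate 4 (0.0713), sgKrt19 replicate 5 (0.0847) or sgKrt19 replicate 8 (0.124), and with no trend in the moderation (0.0762). *Msr1*, the class A scavenger receptor, was not called at 0.12 with an interval of −0.24 to 0.49. *Ms4a7*, a membrane protein of macrophages, was not called at 0.34 with an interval of 0.048 to 0.64 (limma adjusted p = 0.0692), and its groups overlapped only between the sgScramble maximum of 630 and the sgKrt19 minimum of 624.

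The remaining genes of resident-type macrophages varied more between tumors of a group than between groups. *Cd163*, the receptor for haptoglobin and hemoglobin, had 78.02, 25.7, 63.02 and 101 against 31.2, 13 and 64.1, with a log2 fold change of −0.98 and a wide interval of −2.20 to 0.24 (limma adjusted p = 0.186). *Folr2*, folate receptor beta, had 168, 98.8, 93.2 and 148 against 118, 72.01 and 161 (log2 fold change −0.15, interval −0.82 to 0.53), and 63.1% of its exon bases lie opposite *Gm10602*. *Lyve1*, a hyaluronan receptor of lymphatic endothelium and of macrophages beside vessels, had 65.02, 14.8, 20.1 and 51.01 against 27.7, 20 and 51.46 (log2 fold change −0.048, interval −1.20 to 1.11). For all 3 genes the sgScramble tumors 1 and 4 were the highest of their group and tumor 8 the highest of the sgKrt19 group. The adipocyte gene *Cfd*, which encodes adipsin, had 879, 80.03, 45.7 and 591 against 150, 77.01 and 435, and was high in the same 3 tumors. This pattern was chosen after the values were seen, and the part of fat tissue, or of lymphatic vessels, in it was not tested.

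Genes of lipid-associated macrophages included the most abundant member. *Spp1* encodes osteopontin, which macrophages and many epithelial cancer cells secrete, and took 0.56% to 1.09% of all reads of a library. A gene model on the same strand, Gm42793, covers 18.8% of its exon bases. Its normalized read counts were 457231, 387544, 386811 and 335551 in the sgScramble tumors and 437304, 247824 and 266318 in the sgKrt19 tumors. The groups overlapped through sgKrt19 tumor 5, and the log2 fold change was −0.34 with an interval of −0.97 to 0.28 (limma adjusted p = 0.362). With scaling by library size alone limma called *Spp1* lower at −0.56 (adjusted p = 0.0417). *Gpnmb*, a lysosomal glycoprotein of lipid-laden macrophages, had 216, 208, 216 and 271 against 435, 384 and 294 without overlap, the log2 fold change being 0.69 (limma adjusted p = 0.0129, SE 0.17). This call was lost without sgKrt19 replicate 5 (limma adjusted p = 0.0526) and with scaling by library size alone (0.0548). *Trem2*, the lipid receptor that signals through DAP12, was not called at 0.093 with an interval of −0.24 to 0.43, in contrast to its adaptor *Tyrobp* at 0.72, and the difference between these 2 genes was not tested. *Apoe*, the lipoprotein ligand of TREM2, missed the threshold at 0.46 with an interval of 0.089 to 0.83 (limma adjusted p = 0.0561), and was called without sgScramble replicate 3 at 0.55 (limma adjusted p = 0.0402) and by DESeq2 at 0.44 (adjusted p = 0.0286).

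The activation genes held the largest and second largest log2 fold changes of the members, and the genes called moved in opposite directions. *Chil3* (ENSMUSG00000040809.10, chromosome 3 at 106147554 to 106167564 of GRCm38, minus strand) encodes the chitinase-like protein YM1, which IL-4 induces in mouse macrophages and which neutrophils also make. It had 1683, 2786, 2455 and 2272 normalized read counts in the sgScramble tumors and 154, 127 and 262 in the sgKrt19 tumors, with means of 2299 ± 463 (SD, n = 4) and 181 ± 71.8 (SD, n = 3). The sgScramble mean was 12.7 times the sgKrt19 mean, no tumor of one group came near the other group, and the log2 fold change was −3.71 (limma adjusted p = 2.38e-05, SE 0.24). Over 15 alternative settings and left-out tumors it ranged from −4.01 to −3.49 and was called in each. *Chil4*, the neighbouring gene for YM2, which is not a member, was still more abundant per length in the sgScramble tumors. It had 11394, 18243, 14790 and 12139 against 84.4, 497 and 1101, the log2 fold change being −5.27 (limma adjusted p = 0.000364, SE 0.66). Without sgKrt19 replicate 5 the log2 fold change of *Chil4* was −4.23, and without sgKrt19 replicate 8 it was −6.07. Of the 76-base windows of *Chil3*, 7.54% also occur in *Chil4*, so part of the reads of this pair could have been counted for either gene. Which cells of these tumors made the transcripts of *Chil3* and *Chil4* was not tested.

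*Retnla* (ENSMUSG00000061100.4, chromosome 16 at 48842551 to 48844461 of GRCm38, plus strand) encodes RELM alpha, also called FIZZ1, another protein that IL-4 and IL-13 induce. It had 114, 46.4, 176 and 187 normalized read counts in the sgScramble tumors, and 4.62, 6.001 and 51.46 in the sgKrt19 tumors, which rest on 4, 6 and 49 reads. Tumors 5 and 6 were far below every sgScramble tumor, whereas tumor 8 lay above sgScramble tumor 2. The log2 fold change was −3.19 (limma adjusted p = 0.00923, SE 0.74). It was −4.21 without sgKrt19 replicate 8 and −2.60 without sgKrt19 replicate 5. *Retnlg*, a related gene of neutrophils that shares no 76-base window with *Retnla*, was called higher, with 11.2, 3.95, 5.48 and 8.35 against 21.96, 19 and 14.7 (log2 fold change 1.31, limma adjusted p = 0.0263, SE 0.39). The *Retnlg* call was lost without sgScramble replicate 2 (limma adjusted p = 0.0669), sgKrt19 replicate 5 (0.0898) or sgKrt19 replicate 6 (0.0682). *Retnlg* passed the filter mainly through the sgKrt19 tumors, so its call lends no support.

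*Nos2* (ENSMUSG00000020826.8, chromosome 11 at 78920787 to 78960254 of GRCm38, plus strand) encodes the inducible nitric oxide synthase, which competes with arginase for arginine. It had 134, 93.9, 142 and 196 normalized read counts in the sgScramble tumors and 321, 256 and 328 in the sgKrt19 tumors. The groups did not overlap, and the log2 fold change was 1.13 (limma adjusted p = 0.00534, SE 0.23). *Arg1* (ENSMUSG00000019987.9, chromosome 10 at 24915221 to 24927484 of GRCm38, minus strand) encodes arginase 1 and was not called, with 4409, 3785, 3245 and 5814 against 4284, 3347 and 2279. Its log2 fold change was −0.40 with an interval of −0.91 to 0.12 (limma adjusted p = 0.205), and the groups overlapped widely. Per kilobase of exon *Arg1* stayed above *Nos2* in both groups, with means of 1936 and 32.0 in the sgScramble tumors and 1483 and 68.4 in the sgKrt19 tumors. Thus, of 3 members that IL-4 and IL-13 induce in this group, *Chil3* and *Retnla* were called lower and *Arg1* was not called.

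The sequences before *Chil3*, *Chil4* and *Retnla* are shown because these genes differed most and the first pair are near copies. The windows of *Chil3* and *Chil4* were identical at 154 of 173 aligned positions (89%), and both hold the GAS core at the same aligned place. The matches in capitals are as named for each gene, and the sequences end at the base before the gene and run along its strand.
*Chil3*, chr3:106167565-106167764, minus strand, with a GAS core and an ISRE core: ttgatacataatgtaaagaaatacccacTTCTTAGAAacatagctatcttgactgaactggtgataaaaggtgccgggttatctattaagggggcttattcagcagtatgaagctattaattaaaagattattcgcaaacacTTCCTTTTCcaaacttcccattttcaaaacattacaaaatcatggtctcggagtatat
*Chil4*, chr3:106219508-106219679, minus strand, with a GAS core and a C/EBP core: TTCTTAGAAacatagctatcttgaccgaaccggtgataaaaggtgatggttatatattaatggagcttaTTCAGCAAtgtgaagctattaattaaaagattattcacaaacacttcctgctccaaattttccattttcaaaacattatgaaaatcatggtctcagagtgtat
*Retnla*, chr16:48842409-48842550, plus strand, with a PU.1 core and a C/EBP core: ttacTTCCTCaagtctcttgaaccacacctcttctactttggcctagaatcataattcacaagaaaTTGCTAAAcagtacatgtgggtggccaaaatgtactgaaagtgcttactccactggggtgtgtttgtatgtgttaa

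Of the monocyte genes, only *Ly6c2* passed the test. *Ly6c2* (ENSMUSG00000022584.14, chromosome 15 at 75108158 to 75111970 of GRCm38, minus strand) encodes the Ly6C antigen of inflammatory monocytes, which some T cells and endothelial cells also carry. It had 210, 124, 115 and 183 normalized read counts in the sgScramble tumors and 664, 549 and 674 in the sgKrt19 tumors, with means of 158 ± 45.96 (SD, n = 4) and 629 ± 69.4 (SD, n = 3). The groups were far apart, the log2 fold change being 2.03 (limma adjusted p = 0.000185, SE 0.22). Its neighbour *Ly6c1*, of endothelium and T cells, shares 9.32% of the 76-base windows of *Ly6c2* and had 631, 354, 366 and 410 against 1603, 1225 and 1555 (log2 fold change 1.76, limma adjusted p = 0.000227, SE 0.20). Both T cell genes and blood endothelial genes were higher in the same tumors, by their sums, and their part in the *Ly6c2* difference was not tested. *Cx3cr1*, the fractalkine receptor of nonclassical monocytes and resident macrophages, had 662, 612, 638 and 760 against 580, 892 and 393. Tumors 6 and 8 were the highest and the lowest of all 7, and the log2 fold change was −0.18 with an interval of −0.69 to 0.34 (limma adjusted p = 0.57). *F13a1*, coagulation factor XIII A of monocytes and some macrophages, had 651, 434, 435 and 669 against 437, 290 and 421 and missed the threshold at −0.51 (limma adjusted p = 0.0881), while DESeq2 called it at −0.53 (adjusted p = 0.0497) and so did limma with scaling by library size alone, at −0.72 (0.0221). *Ccr2*, the chemokine receptor by which monocytes leave the marrow, was not called at −0.093 with an interval of −0.59 to 0.41 (limma adjusted p = 0.771).

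The groups of members were next set against the identity genes of the same tumor, by subtracting the mean log2(value + 1) of the 10 identity genes from that of each group. These differences describe the tumors and carry no test. The identity mean itself was 10.48 to 10.89 in the sgScramble tumors and 10.90 to 11.23 in the sgKrt19 tumors. Relative to it, Fc receptor and C1q genes were at 0.19, 0.04, 0.10 and 0.05 in the sgScramble tumors and at 0.40, 0.33 and 0.43 in the sgKrt19 tumors, a difference of means of 0.29. It rests on *Fcgr4* (1.21) and *Fcgr1* (0.47), whereas *C1qa* (0.11), *C1qb* (0.16) and *C1qc* (0.0021) overlapped and *Fcgr3* was lower without overlap (−0.19). Activation genes were at −1.58, −1.61, −1.16 and −1.19 in the sgScramble tumors and −3.69, −3.76 and −2.58 in the sgKrt19 tumors, a difference of −1.96. This mean joins *Chil3* (−4.12), *Retnla* (−3.61) and *Arg1* (−0.81) with *Nos2*, which went the other way without overlap (0.71). For neither of these means did the tumors of the 2 groups overlap. The means differed by −0.36 for scavenger and resident-type genes, −0.19 for lipid-associated genes and 0.032 for monocyte genes, all with overlap. The last value also joins members that went different ways, since relative to identity *Ly6c2* differed by 1.61 and *F13a1* by −0.92.

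Because 4 of the 10 identity genes were themselves higher, the choice of reference mattered. Relative to *Csf1r* alone the Fc receptor and C1q genes differed by 0.66 and the activation genes by −1.59, again without overlap. The lipid-associated genes then changed sign, to 0.17, the scavenger and resident-type genes differed by 0.0043, and the monocyte genes by 0.40, all with overlap. Of the 35 single members, 9 were higher without overlap and 10 lower without overlap relative to the other identity genes, and 16 overlapped. Of all 21322 genes tested 5.71% were higher and 36.7% lower without overlap relative to the mean of the 10 identity genes. Relative to *Csf1r* 11 of the other 34 members were higher, 3 were lower (*Mrc1*, *Chil3* and *Retnla*) and 20 overlapped, and of all genes 9.69% were higher and 15.0% lower. *Chil3* differed by −4.12 relative to the identity genes and by −3.76 relative to *Csf1r*, and *Retnla* by −3.61 and −3.24. *Mrc1* differed by −0.92 and −0.56, *Fcgr4* by 1.21 and 1.58, and *Marco* by 1.98 and 2.34. *Marco* lends no support here, since it passed the filter mainly through the sgKrt19 tumors. The members just named differed without overlap under either reference, as did *Aif1*, *Tyrobp*, *Ctss*, *Fcgr1*, *Gpnmb*, *Nos2* and *Ly6c2*, each higher. *C1qc*, in contrast, was at 1.23 to 1.32 in the sgScramble tumors and 1.24 to 1.30 in the sgKrt19 tumors relative to the identity genes.

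**Figure D3:**
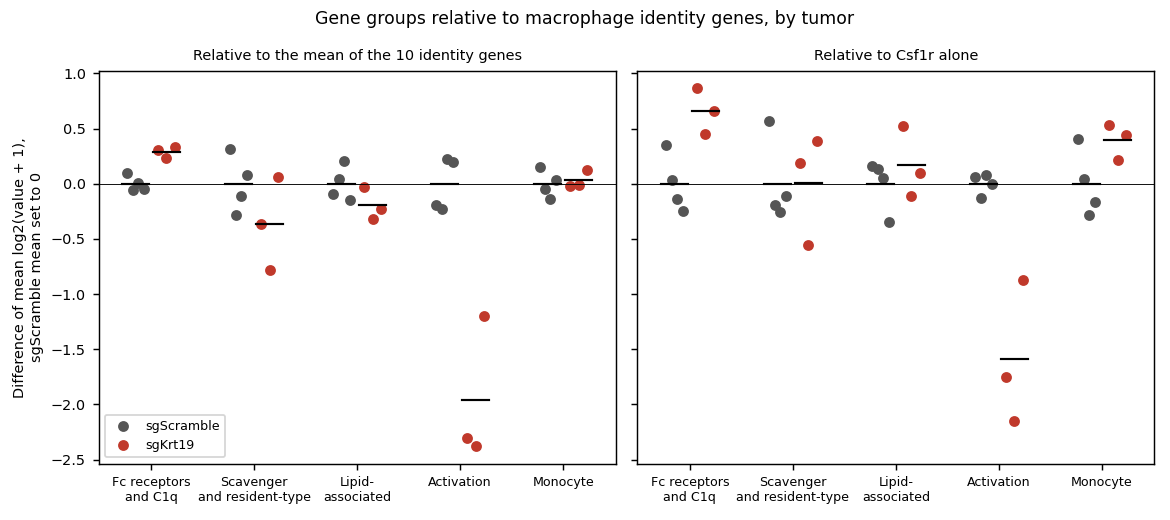
Each point is 1 tumor, and the y axis gives the mean log2(value + 1) of a gene group minus that of the 10 identity genes (left) or minus *Csf1r* (right), with the sgScramble mean of each group set to 0. Horizontal lines are group means (n = 4 sgScramble, n = 3 sgKrt19). The mean of the activation genes, which include *Nos2* with a difference of 0.71 in the other direction, lies lower in all sgKrt19 tumors and that of the Fc receptor and C1q genes higher in both panels, whereas the mean of the lipid-associated genes lies on different sides of 0 in the panels (−0.19 and 0.17).

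Genes of the pathways around the members were read from the same fit, as 7 lists with 67 genes, of which 65 were tested. limma called 24 higher and 5 lower, where 17.9% of all genes were higher and 16.0% lower, and the counts of the lists below are to be read against these shares. The median log2 fold change of the 65 was 0.42, against 0.0072 for all genes. These lists were also written with earlier results known. The genes that feed macrophage growth and entry into tissue were mostly not called: 1 of 9 was higher and none lower, with a median of 0.20. The exception was *Csf2*, which encodes GM-CSF, with 48.3, 14.8, 34.7 and 22.3 against 61.3, 83.01 and 76.7 (log2 fold change 1.38, limma adjusted p = 0.0168, SE 0.37), and this call was lost without sgKrt19 replicate 6 (0.0548) or sgKrt19 replicate 8 (0.0512). Of 11 transcription factors 4 were higher and 1 lower. *Klf4*, a factor of monocytes that epithelial cells also express, was higher by 1.43 (limma adjusted p = 0.000183), *Irf8*, needed for monocytes and dendritic cells, by 0.83 (0.00239), *Cebpb* by 0.52 (0.0383) and *Spi1*, which encodes PU.1 and is named in addition, by 0.48 (0.0199). The limma call of *Cebpb* was lost without sgScramble replicate 2 (adjusted p = 0.0718), sgScramble replicate 4 (0.09), sgKrt19 replicate 5 (0.146) or sgKrt19 replicate 8 (0.0893). That of *Spi1* was lost without sgScramble replicate 2 (limma adjusted p = 0.0615) or sgKrt19 replicate 6 (0.0644), and both were lost with scaling by library size alone (0.121 and 0.186). With no trend in the moderation *Cebpb* was also lost (limma adjusted p = 0.0727). *Maf*, a factor of resident-type macrophages that also drives IL-4 in T cells, was lower, with 924, 941, 998 and 1174 against 720, 622 and 680 (log2 fold change −0.58, limma adjusted p = 0.00607, SE 0.12).

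Transcripts of both the interferon gamma arm and the IL-4 arm of macrophage activation differed. Their part in the differences of the members was not tested. *Ifng*, the gene for interferon gamma, had 40.9, 24.7, 22.8 and 29.7 normalized read counts in the sgScramble tumors and 187, 147 and 200 in the sgKrt19 tumors, without overlap (log2 fold change 2.57, limma adjusted p = 9.67e-05, SE 0.25). *Irf1*, a transcription factor gene that interferon gamma induces in many cell types, had 4762, 5220, 3260 and 4498 against 7429, 8097 and 9261 (log2 fold change 0.91, limma adjusted p = 0.00236, SE 0.16). *Il10*, a cytokine that restrains macrophages, was higher by 1.47 at low counts of 7.43, 3.95, 8.22 and 4.64 against 16.2, 16 and 22.1 (limma adjusted p = 0.0123), and by 0.81 with a pseudocount of 10. Every sgScramble value of *Il10* was under the filter value of 10. The gene was thus tested only through the sgKrt19 tumors, where it was high, and its call lends no support. *Il4* had 40.9, 48.4, 62.1 and 43.6 in the sgScramble tumors and 31.2, 17 and 16.8 in the sgKrt19 tumors, each sgKrt19 tumor being below each sgScramble tumor (log2 fold change −1.17, limma adjusted p = 0.0128, SE 0.29). *Il13* was not tested, with 9.29, 4.94, 9.13 and 18.6 in the sgScramble tumors and 1 to 3 reads in each sgKrt19 tumor. The receptor chain *Il4ra* was higher, by 0.51 (limma adjusted p = 0.00593; 0.0575 with scaling by library size alone), and *Stat6* was not called at 0.14 (limma adjusted p = 0.335); these 2 were picked after their values were seen. In this list 6 of 9 tested genes, *Il10* among them, were higher and 1 lower, with a median of 0.51.

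Other genes of the alternative and inflammatory programs were counted in the same way. Of 7 further genes of alternative activation none was higher and 2 were lower, with a median of −0.15. *Mgl2*, the lectin CD301b, had 1216, 880, 938 and 1482 against 697, 697 and 455, without overlap (log2 fold change −0.87, limma adjusted p = 0.0116, SE 0.21). *Ear2*, a ribonuclease of eosinophils and macrophages, had 156, 63.2, 266 and 291 against 64.7, 77.01 and 61.96, with overlap through sgScramble tumor 2 (log2 fold change −1.29, limma adjusted p = 0.0481, SE 0.45), and it belongs to a family of close copies. Leaving out any tumor other than sgScramble tumor 2 ended the *Ear2* call, with limma adjusted p-values of 0.0692 to 0.119, as did no trend in the moderation (0.0854) and the filter of 100 (0.053). Of 11 tested inflammatory genes 7 were higher and 1 lower, with a median of 0.78. The largest were *Cxcl9* and *Cxcl10*, chemokines induced by interferon gamma, at 2.27 and 2.06 (limma adjusted p = 7.09e-05 and 9.21e-05), and *Acod1*, the enzyme that makes itaconate, at 1.55 (limma adjusted p = 0.000666). *Ptgs2*, the cyclooxygenase COX-2, was lower, with 2522, 2411, 1547 and 1810 against 1347, 1116 and 833 (log2 fold change −0.91, limma adjusted p = 0.00783, SE 0.20). *Cxcl10* and *Ptgs2* are also expressed by epithelial and stromal cells, and their source in these tumors was not tested.

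Of 13 genes of lipid handling and lysosomes 4 were higher and none lower, with a median of 0.42. The largest called were *Plin2*, a coat protein of lipid droplets, at 0.67 (limma adjusted p = 0.00777), *Itgax*, the integrin CD11c, at 0.55 (0.033) and the protease gene *Ctsb* at 0.53 (0.0111). limma no longer called *Itgax* without sgScramble replicate 1 (adjusted p = 0.064), sgScramble replicate 2 (0.083), sgScramble replicate 3 (0.0626) or sgKrt19 replicate 6 (0.117), or with scaling by library size alone (0.215) or no trend in the moderation (0.0667). Of 5 partners of Fc receptors and TREM2, 2 were higher and none lower, with a median of 0.25. *Fcer1g*, the signaling chain of FcgammaRI, FcgammaRIII and FcgammaRIV, had 1506, 1034, 1248 and 1456 normalized read counts in the sgScramble tumors and 2973, 2496 and 2222 in the sgKrt19 tumors (log2 fold change 0.97, limma adjusted p = 0.00131, SE 0.15). *Hcst*, the gene for DAP10, had 38.1, 41.5, 31.97 and 22.3 against 127, 127 and 105 (log2 fold change 1.84, limma adjusted p = 0.000587, SE 0.25). Neither pair of groups overlapped. DAP10 and the gamma chain are also made by T cells and NK cells, and 4 of 4 T cell genes were called higher in these tumors, with a median log2 fold change of 2.77. The part of T cells in these differences was not tested.

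**Figure D4:**
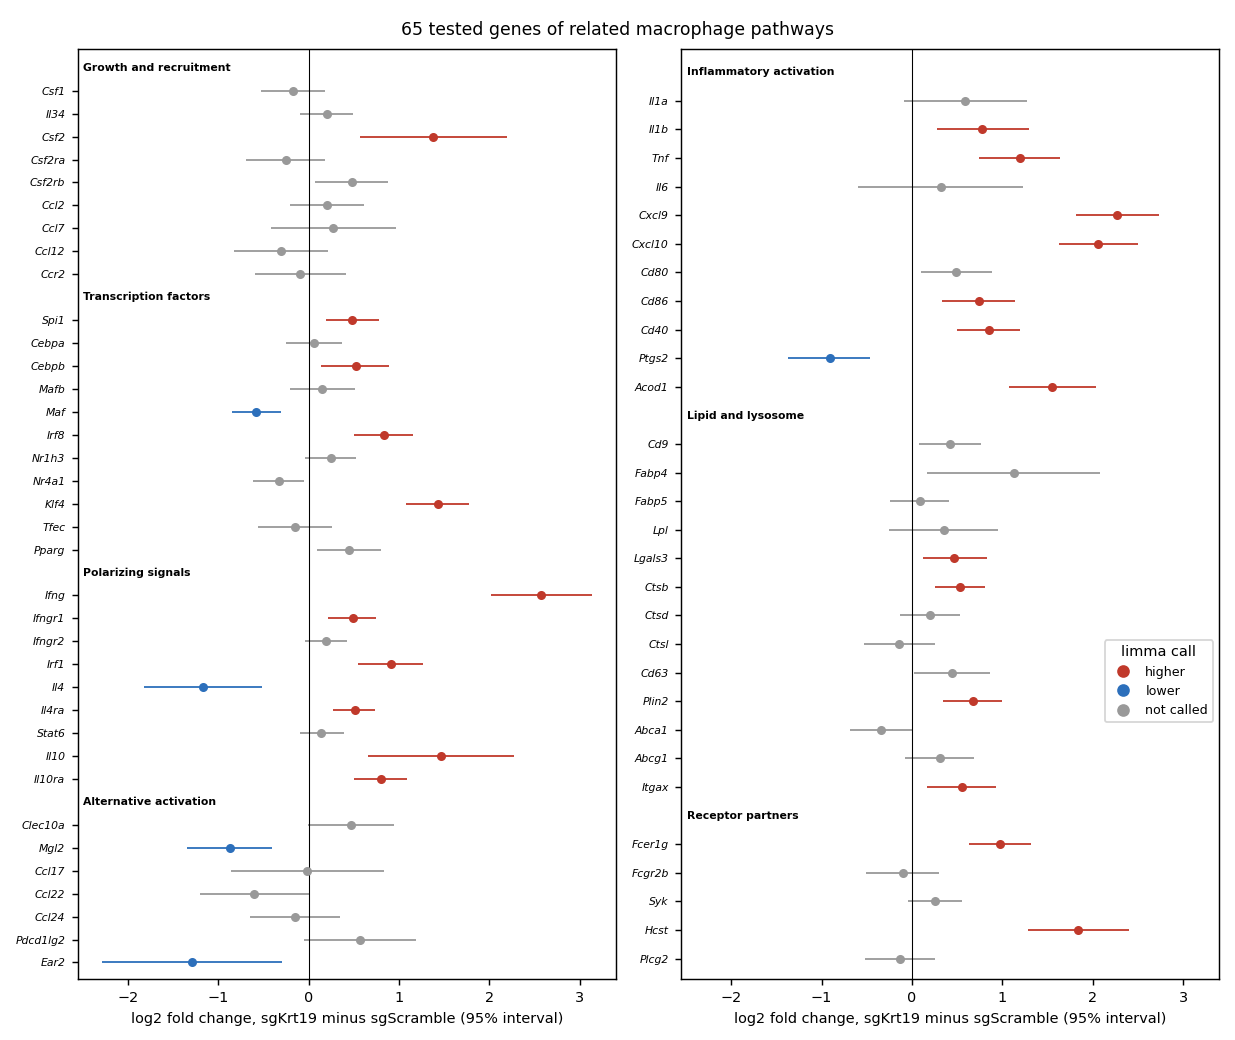
Log2 fold changes (sgKrt19 minus sgScramble, x axis) with 95% intervals for the 65 tested genes of 7 lists around the members, grouped by list on the y axis. Red points were called higher by limma (24 genes), blue points lower (5 genes) and grey points were not called (36 genes); *Ifng*, *Cxcl9* and *Cxcl10* lie farthest to the right, at 2.57, 2.27 and 2.06, and *Ear2* and *Il4* farthest to the left, at −1.29 and −1.17.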

How the data were processed

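RNA of 7 subcutaneous tumors was sequenced by the authors with a stranded Illumina TruSeq total RNA kit (12 PCR cycles, single reads of 76 bases), while the labels give the molecule as polyA RNA. The deposited values are a signal: read counts of the genes had been scaled by the authors with 1 size factor for each library. Whole reads were recovered from 100.00% of values in every library (tolerance 0.01 read). The submitters' processing notes name the build mm10, and the aligner, counter and annotation are not given in the sources used here. Positions come from GENCODE M21 (GRCm38), which holds 97.74% of the gene identifiers in the same version.

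Genes that reached a value of 10 in 3 or more libraries entered limma 3.58.1 (R 4.3.3; lmFit, eBayes with trend) on log2(value + 1), which understates changes of low values, with Benjamini-Hochberg adjustment over all genes tested and a threshold of 0.05. Intervals of fold changes are 95% limma intervals. Alternatives were edgeR 4.0.16 and DESeq2 1.42.0 on recovered reads, scaling by library size, pseudocounts of 0.5 and 10, no filter, a filter of 100, no trend, and each library left out. The scripts were tested on simulated data. A count of 3 reads, taken as a floor, corresponds to a value of 2.74 to 3.47 and covers counting error only. Replicates differed by more than sampling noise (chi-square of 17.2 to 74.2 per degree of freedom). The labels do not say whether the tumors of a group came from separate mice, and the methods describe injection into the right flank. The p-values set the difference between the groups against the spread between these samples. No sequencing batch is labelled, and any batch aligned with the groups cannot be told apart from them.

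The members, the gene lists and the tests were chosen with earlier results of these data known. All 35 members are named, with values in every library for those called and for the activation genes. From each list of associated genes up to 3 called genes in each direction with the largest log2 fold changes are named, and other genes where a result turns on them. Part of the genotype behind the cell line and 1 gene of these lists are not reported here.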

Additional observations from a re-analysis of the deposited data

Results flagged for a closer look

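In sgScramble tumor 4 *Gpnmb* had 270.8 normalized read counts, while the other 3 sgScramble tumors lay between 208.5 and 216.5. The gap to the nearest of them was 0.872 of the range of the group, above Dixon's critical value for 4 samples. It was the single such value among 41 results searched (35 members and 6 gene groups), and chance gives about 1 in 20. The sgKrt19 group of 3 tumors was not searched.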

How the results depend on the processing

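No paired analysis was possible because the groups share no replicate number. Of 16 called members, 9 stayed past the threshold under all 15 alternatives. *Marco* did so under the 14 that tested it, since it did not pass the filter of 100. *Marco* passed the main filter mainly through the sgKrt19 tumors, where it was high, so its stability lends no support. None of the 16 changed direction where tested. The other 6 were *Cd14*, *C1qa*, *C1qb*, *C1qc*, *Mrc1* and *Gpnmb*. Over all members and alternatives, 456 of 507 values kept direction and side of the threshold, 22 lost a call, 5 gained one and 24 changed sign, the last all among members that were not called. Counts of called members ranged from 11 to 18. The cause of these shifts was not tested. Depth limits *Vsig4*, *Marco* and *Retnla*, which rest on few reads.

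With scaling by library size alone, 2187 genes were called higher and 5705 lower, 8 members higher and 5 lower, and the median of the identity genes was 0.053 in place of 0.27. Log2 fold changes below 0 in place of above it were −0.20 for *Adgre1*, −0.16 for *Csf1r*, −0.11 for *Cd68*, −0.10 for *Mertk*, −0.089 for *Itgam*, −0.092 for *Msr1* and −0.12 for *Trem2*. For *Adgre1* edgeR gave −0.0037 and DESeq2 −0.0001. With 1 tumor left out, the genes called higher numbered 2481 (without sgKrt19 replicate 5) to 4103, those called lower 2232 (without sgScramble replicate 2) to 3611, and the identity median was 0.20 to 0.48 (without sgKrt19 replicate 8). Signs changed within the left-out ranges of *Adgre1* (−0.07 to 0.16), *Csf1r* (−0.047 to 0.19), *Mertk* (−0.024 to 0.30), *Folr2* (−0.41 to 0.16), *Lyve1* (−0.41 to 0.29), *Trem2* (−0.047 to 0.17) and *Cx3cr1* (−0.48 to 0.11). Relative to *Csf1r* in place of the identity mean, the Fc receptor and C1q group differed by 0.66 (0.29 in the report), the scavenger and resident-type group by 0.0043 (−0.36), the lipid-associated group by 0.17 (−0.19) and the monocyte group by 0.40 (0.032).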

Other observations

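Several members were highest or lowest of their group in sgKrt19 tumor 8, a pattern chosen after the values were seen and not tested. In a group of 3 tumors each gene has a highest and a lowest tumor. Such a position alone does not set tumor 8 apart. In that tumor *Chil3* had 263 normalized read counts against 154 and 127 in the other sgKrt19 tumors, *Chil4*, which is not a member, had 1101 against 84.4 and 497, and *Retnla* had 51.5 against 4.62 and 6.001. *Cd163* (64.1 against 31.2 and 13), *Folr2* (161 against 118 and 72.01) and *Lyve1* (51.5 against 27.7 and 20) were also highest there. *Lyz2* (16636 against 29792 and 25295), *Tyrobp* (1774 against 2371 and 2113) and *Ctss* (11019 against 14913 and 13049) were lowest there, as were all 3 chains of C1q. The tumor was not far from the others of its group for *Fcgr4*, *Ly6c2* or *Nos2*, which had 1092, 674 and 328. Its *Ly6c2* and *Nos2* values were nevertheless also the highest of that group.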
